A study of Mus musculus with 96 samples.

Results

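Il6, Csf3, Saa3 and Ptgs2, 4 secreted or enzymatic products of lipopolysaccharide-treated macrophages, were followed across every treatment and time of a study of paired ligands in RAW 264.7 cells, a transformed mouse macrophage-like line. They are 4 of the 10698 genes that the platform annotation names with a single symbol, and have 6 of its 16281 probes: Il6 has probe 7872, Csf3 has probes 6317 and 18418, Saa3 has probes 4888 and 14790, and Ptgs2 has probe 17183. The genes were chosen by name, with earlier results of these data known, and every probe is described. Their counts of calls beside the share over all probes are therefore descriptions. Total RNA of treated cells and of untreated cells of the same time was hybridised together on 2-colour arrays, and each value is the log2 ratio of treated to untreated RNA.

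The treatments were lipopolysaccharide (LPS, 100 ng with 100 pM of LPS binding protein, volume not stated) with interferon-gamma (IFNG, 5 nM), LPS with 2-methyl-thio-ATP (2MA, a nucleotide analogue that acts on purinergic receptors, 500 uM), IFNG alone, 2MA alone and LPS alone. Each was sampled at 1, 2 and 4 h, and LPS alone also at 30 min, which gives 16 groups. A group holds 3 numbered sets, each hybridised in both dye orientations, so that 96 arrays give 48 set values. The labels give 500 uM of 2MA, except that the description of 1 array gives 500 nM. Untreated RAW 264.7 cells were the other channel of every array, and the labels do not say whether different treatments shared one untreated RNA.

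LPS is a bacterial cell wall lipid that macrophages sense through the receptor TLR4. Its adaptors activate NF-kB and AP-1, which drive a first wave of genes, and a later wave also needs proteins made in the first, such as the NF-kB cofactor encoded by Nfkbiz and the C/EBP factors. Il6 encodes interleukin 6, a cytokine of the acute-phase response, and Csf3 encodes granulocyte colony-stimulating factor, which drives neutrophil production. Saa3 encodes a serum amyloid A protein that mouse macrophages make in inflammation, and Ptgs2 encodes cyclooxygenase-2, the inducible enzyme that starts prostaglandin synthesis. The mRNAs of Il6, Csf3 and Ptgs2 carry AU-rich elements that target them for rapid decay.

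The promoters of the genes are shown because all 4 genes rose with LPS, and because NF-kB, C/EBP and AP-1 are the factors known for this gene class. RefSeq gives a start site and promoter window of the GRCm38.p6 build for 3 of the 4 genes. Each window runs 5′ to 3′ on the gene's strand, from 250 bases before the start to 50 bases after it. Il6 lies at chr5:30012864-30013163 on the plus strand, Saa3 at chr7:46715627-46715926 on the minus strand, and Ptgs2 at chr1:150099781-150100080 on the plus strand. Capitals mark matches, on either strand, to an NF-kB motif (GGG, any 5 bases, then CC), a C/EBP motif (TTNNGNAA) or an AP-1 motif (TGANTCA), and adjoining or overlapping matches run together.
Il6: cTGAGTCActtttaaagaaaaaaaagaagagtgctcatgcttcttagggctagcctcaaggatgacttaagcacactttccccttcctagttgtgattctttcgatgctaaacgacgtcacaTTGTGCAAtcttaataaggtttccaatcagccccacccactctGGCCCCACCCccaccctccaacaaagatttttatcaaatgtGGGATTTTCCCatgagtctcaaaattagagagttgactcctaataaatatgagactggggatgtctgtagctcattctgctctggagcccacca
Saa3: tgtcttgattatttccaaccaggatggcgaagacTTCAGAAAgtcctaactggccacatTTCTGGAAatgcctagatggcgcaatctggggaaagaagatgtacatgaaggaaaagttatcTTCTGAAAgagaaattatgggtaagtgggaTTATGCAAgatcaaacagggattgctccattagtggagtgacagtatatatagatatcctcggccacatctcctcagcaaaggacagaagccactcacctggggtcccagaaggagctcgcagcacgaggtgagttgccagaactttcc
Ptgs2: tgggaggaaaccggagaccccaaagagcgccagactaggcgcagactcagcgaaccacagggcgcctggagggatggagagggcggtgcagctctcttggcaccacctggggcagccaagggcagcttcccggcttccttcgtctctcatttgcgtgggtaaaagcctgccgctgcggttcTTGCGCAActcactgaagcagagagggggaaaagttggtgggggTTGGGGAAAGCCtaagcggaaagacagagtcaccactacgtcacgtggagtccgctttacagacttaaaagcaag
In the Il6 window an AP-1 match began at -249 from the start site, a C/EBP match at -128 and NF-kB matches at -85, -44 and -43, the last pair overlapping on opposite strands. The Saa3 window held 4 C/EBP matches, at -216, -191, -129 and -99, and no NF-kB match in these letters. In Ptgs2, C/EBP matches at -69 and -25 were found, the second overlapping an NF-kB match at -23. Of 32851 promoter windows of the same length, 50.8% held the NF-kB letters, 40.7% the C/EBP letters and 7.81% the AP-1 letters, so all but the AP-1 match are common in promoters. The same search for a CRE (TGACGTCA, in 1.79% of windows) and a TATA box (TATAAA, in 13.6%) found no match in these letters. Variants of these letters were not searched.

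Across the series, between 13508 and 15004 probes per array had a value other than exactly 0, which was read as missing, and 753 probes were at 0 on every array. Depth is not defined for arrays, and the 3 sets per group limit the precision: over all probes the median standard error was 0.122 for a response and 0.172 for a difference of responses, on the log2 scale. The sign was read as Cy5 over Cy3. In the untouched ratios the arrays of a dye-swapped pair correlated between -0.784 and 0.396 over probes, above 0 in 10 of the 48 pairs. After the sign was turned, the Tnf and Il1b probes, known LPS targets, lay above 0 on every LPS array with a value, and the Irf1 and Socs1 probes, known IFNG targets, on 6 of 6 IFNG arrays at each time. Ratios hold no levels, so macrophage identity cannot be read from them, and in whole cultures fewer cells and less RNA per cell cannot be told apart. The labels do not say that sets were separate cultures, so p-values measure the spread between sets.

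With LPS alone, all 4 genes rose. No member probe passed at 30 min, 4 of 6 passed at 1 h, and 5 of 6 passed at 2 h and at 4 h, with 0 lower at any time. At an unadjusted p under 0.05, 4 of 6 were higher at 30 min and 0 were lower at any time. A probe passed where limma's moderated test of the group mean against 0, adjusted by Benjamini and Hochberg over all probes tested, gave an adjusted p under 0.05. Over all probes, 0.807% were called higher at 30 min, 3.2% at 1 h, 7.34% at 2 h and 11.9% at 4 h. The response differed between the 4 times for 5 of 6 probes by the moderated F test, against 15.2% of all probes, with F = 125 for Il6, 46.0 for Csf3 probe 6317, 45.2 and 22.6 for Saa3 probes 4888 and 14790, and 20.1 for Ptgs2.

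Il6 was the one gene still near 0 at 1 h. Its log2 ratio in sets 1, 2 and 3 was -0.16, 0.18 and 0.09 after 30 min of LPS, -0.03, 0.08 and 0.38 after 1 h, 1.52, 2.27 and 2.23 after 2 h, and 4.39, 4.58 and 4.54 after 4 h. The 30 min and 1 h sets overlapped around 0, whereas every 2 h set lay above them and every 4 h set above those. The 4 h mean was 4.50 ± 0.10 (SD, n = 3), 22.6-fold over untreated cells (adjusted p = 6.28e-21), and the 2 h mean was 2.01 ± 0.43, 4.02-fold (adjusted p = 7.93e-11). At 1 h the mean was 0.14 ± 0.21 (95% interval -0.24 to 0.52, adjusted p = 0.915). The steps between successive times were 0.11 from 30 min to 1 h (interval -0.43 to 0.64), 1.87 from 1 h to 2 h (adjusted p = 1.04e-05) and 2.49 from 2 h to 4 h (adjusted p = 1.42e-08). Over all probes, 0.563%, 1.67% and 3.8% were called higher at these 3 steps.

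Csf3 rose within the first hour by probe 6317. Its sets stood at -0.08, 0.42 and 0.39 after 30 min of LPS, 2.16, 1.67 and 1.94 after 1 h, 3.18, 3.33 and 3.84 after 2 h, and 3.94, 4.08 and 4.52 after 4 h. The sets of each time lay above those of the time before, without overlap. The 1 h mean of 1.92 ± 0.25 was 3.8-fold (adjusted p = 7.72e-07) and the 4 h mean of 4.18 ± 0.30 was 18.1-fold (adjusted p = 3.47e-16, n = 3 each). The step to 1 h was 1.68 (adjusted p = 0.0115) and the step to 2 h was 1.53 (adjusted p = 0.0123), while the step to 4 h, 0.73, did not pass (interval -0.01 to 1.47, adjusted p = 0.329). Neither called step held without set 1 (1.40 and 1.78, adjusted p = 0.9997 and 0.171) or without set 2 (1.90 and 1.46, adjusted p = 0.103 and 0.124), and the step to 2 h also failed with arrays scaled to one spread (1.25, adjusted p = 0.258).

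The other Csf3 probe, 18418, showed none of this and was called in no group. It had a value on 66 of 96 arrays, 62 of them below 0 before the sign was turned, and its mean dye effect over 22 dye-swapped pairs was -1.0 ± 0.57, larger in size than that of 98.9% of probes. Where 1 orientation is missing, this offset does not cancel in the set value. Its LPS sets were 1.29, 0.05 and 1.80 at 30 min, 0.96, -0.01 and -0.12 at 1 h, -0.88, 0.82 and -1.17 at 2 h, and -0.31 and -0.22 in the 2 sets measured at 4 h. In those 2 sets probe 6317 stood higher by 4.56 ± 0.25, so the probes disagree and the Csf3 results rest on 1 probe. With both probes averaged before the test, the Csf3 response to 1 h of LPS was 1.10 (adjusted p = 0.195) and that to 4 h was 2.66 (adjusted p = 8.12e-06).

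**Figure D1:**
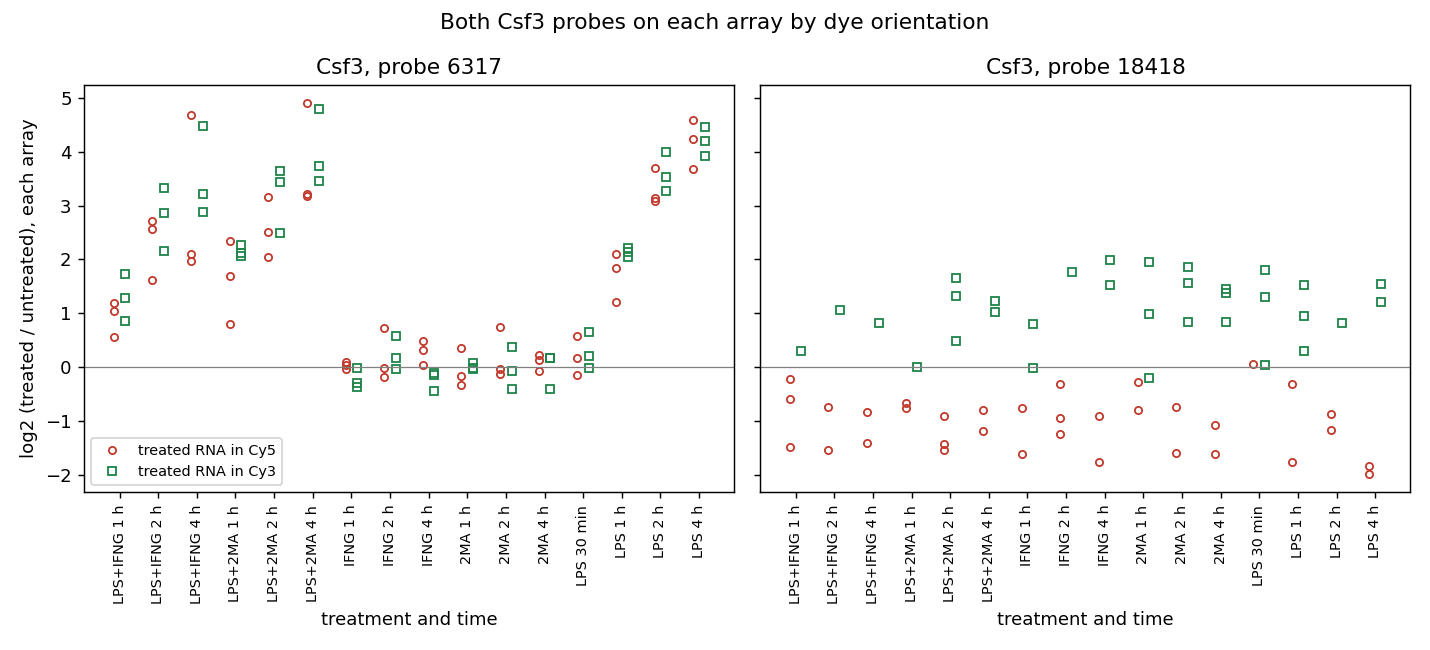
Log2 ratio of treated to untreated RNA (vertical axis) for both Csf3 probes on each array, by group (horizontal axis) and dye orientation (marker). Probe 6317 lies well above 0 with 4 h of LPS in both orientations (mean 4.18), whereas probe 18418, with a mean dye effect of -1.0, splits mostly by orientation and was called in no group.

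Saa3 was read by both of its probes. Probe 4888 gave 0.42, 0.93 and 1.40 in sets 1, 2 and 3 after 30 min of LPS, 1.40, 1.28 and 1.21 after 1 h, 2.97, 3.26 and 2.68 after 2 h, and 4.87, 4.43 and 4.74 after 4 h. Probe 14790 gave 0.87, 1.02 and 1.78, then 2.38, 1.99 and 1.79, then 3.44, 4.39 and 3.19, then 5.11, 5.54 and 4.77 at the same times. By both probes the 30 min sets were all above 0 and the sets of 1 h, 2 h and 4 h did not overlap. The 1 h sets overlapped those of 30 min by probe 4888, and by probe 14790 they lay just above them. The 4 h responses were 4.68 ± 0.23 and 5.14 ± 0.39, or 25.7-fold and 35.3-fold (adjusted p = 1.2e-17 and 2.02e-14, n = 3).

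The first Saa3 calls came at 1 h, at 1.30 ± 0.10 by probe 4888 (adjusted p = 0.000583) and 2.06 ± 0.30 by probe 14790 (adjusted p = 0.000131). The first of these was lost without set 2 (1.31, adjusted p = 0.0744) and the second without set 1 (1.89, adjusted p = 0.0798). At 30 min the means were 0.92 ± 0.49 (adjusted p = 0.0825) and 1.22 ± 0.49 (adjusted p = 0.142), and both passed with scaled arrays (1.23 and 1.64, adjusted p = 0.019 and 0.0038) and in the model of all 96 arrays (adjusted p = 0.00129 and 0.00245), probe 14790 also without set 3 (0.95, adjusted p = 0.0419). Probe 4888 read lower than probe 14790 in every group that held LPS, by between 0.31 and 0.82 on average. Its steps to 2 h and to 4 h were 1.67 (adjusted p = 0.00464) and 1.71 (adjusted p = 0.00148). Those steps did not pass with scaled arrays (1.48 and 0.73, adjusted p = 0.0652 and 0.605), and the first did not pass without set 1 (1.73, adjusted p = 0.0726) or set 2 (1.52, adjusted p = 0.236). For probe 14790 the same steps were 1.62 and 1.47 and missed the threshold (adjusted p = 0.105 and 0.0938), but both passed without set 3 (1.73 and 1.41, adjusted p = 0.00167 and 0.00616), on the compared groups alone (adjusted p = 0.0148 and 0.0222) and in the model of all 96 arrays (adjusted p = 0.00372 and 0.00579). With the set as a block the 2 h to 4 h step passed too (adjusted p = 0.0107, 4.77% of all probes called higher).

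Ptgs2 rose by small steps. Its LPS sets were 0.36, 0.85 and 0.99 after 30 min, 1.11, 1.93 and 1.97 after 1 h, 3.47, 2.40 and 2.72 after 2 h, and 3.72, 3.07 and 4.12 after 4 h. The sets of 30 min, 1 h and 2 h did not overlap, and those of 2 h and 4 h did. The means were 0.73 ± 0.33 at 30 min (adjusted p = 0.652), 1.67 ± 0.48 at 1 h (3.18-fold, adjusted p = 7.28e-05), 2.86 ± 0.55 at 2 h (adjusted p = 4.42e-10) and 3.64 ± 0.53 at 4 h (12.4-fold, adjusted p = 3.31e-13). None of the 3 steps between LPS times passed for Ptgs2. They were 0.93 (interval 0.11 to 1.75), 1.19 (interval 0.37 to 2.01) and 0.77 (interval -0.05 to 1.59), and the middle one passed without set 2 (1.56, adjusted p = 0.0469).

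Set against its own 4 h log2 response, Il6 had reached 3.11% at 1 h and 44.6% at 2 h. Csf3 probe 6317 had reached 46.1% and 82.6%, Ptgs2 45.9% and 78.7%, Saa3 probe 4888 27.7% and 63.5%, and Saa3 probe 14790 40% and 71.5%. These shares are descriptions of log2 values, and timing was not tested between genes. Il6 was first called at 2 h, and Csf3 (probe 6317), Saa3 and Ptgs2 at 1 h. The mean of each was highest at 4 h, but the step from 2 h to 4 h passed without a block for Il6 and Saa3 probe 4888 and not for Csf3 probe 6317, Saa3 probe 14790 or Ptgs2.

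**Figure D2:**
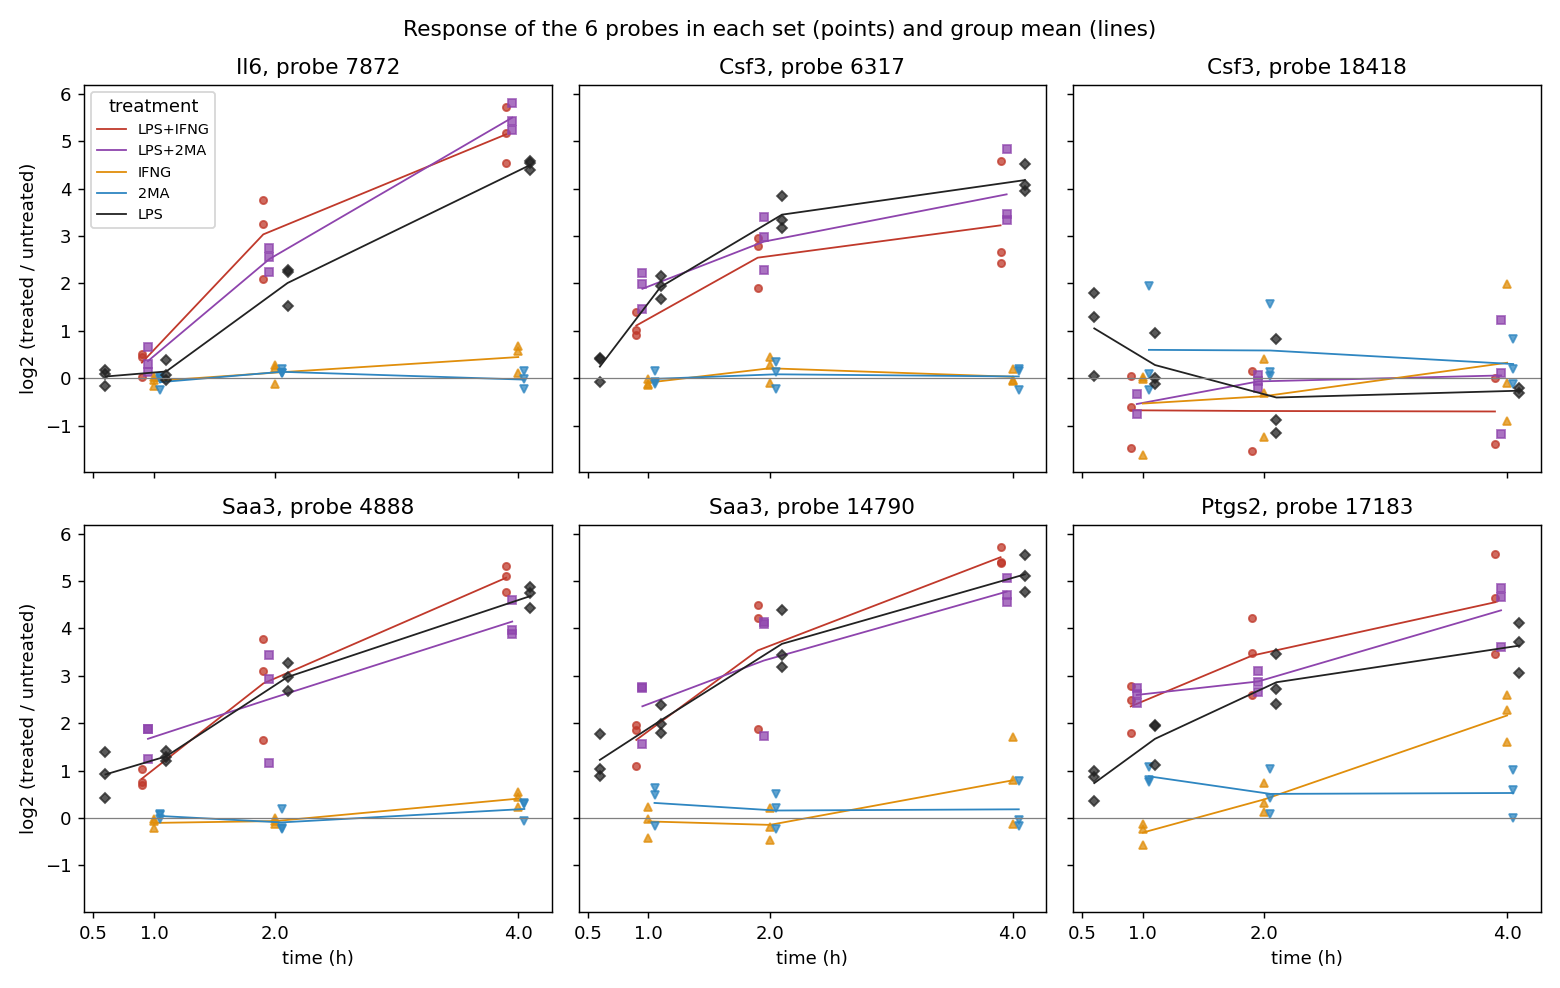
Log2 ratio of treated to untreated RNA (vertical axis) against time in h (horizontal axis) for each of the 6 probes, 1 panel a probe. Points are the 3 sets of a group and lines join group means of each treatment. Il6 lies near 0 at 1 h with every treatment and at 4.50 at 4 h of LPS, and Csf3 probe 18418 shows no course. Ptgs2 is the one gene called with IFNG alone in the fit of set values (2.16 at 4 h).

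The joint treatments called the same number of member probes higher as LPS did, 4 of 6 at 1 h and 5 of 6 at 2 h and 4 h, with 0 lower. Of all probes, LPS with IFNG called 4.67%, 9.39% and 14.5% higher at 1, 2 and 4 h, and LPS with 2MA called 3.45%, 8.1% and 14.1%. At 1 h, Ptgs2 stood at 2.35 ± 0.51 with LPS and IFNG (5.11-fold, adjusted p = 5.14e-08) and 2.60 ± 0.16 with LPS and 2MA (6.04-fold, adjusted p = 8.22e-09). Csf3 by probe 6317 stood at 1.11 ± 0.25 (adjusted p = 0.00273) and 1.89 ± 0.38 (adjusted p = 9.05e-07), and Saa3 by probe 4888 at 0.83 ± 0.17 (adjusted p = 0.0373) and 1.67 ± 0.36 (adjusted p = 9.27e-06), while by probe 14790 it stood at 1.65 ± 0.47 (adjusted p = 0.00169) and 2.36 ± 0.68 (adjusted p = 1.09e-05). Il6 was not called at 1 h with either pair (0.33 ± 0.27 and 0.36 ± 0.27, adjusted p = 0.418 and 0.491).

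The Csf3 and Saa3 calls at 1 h with LPS and IFNG were lost when a set was left out, while the values stayed close. Without set 1, Csf3 was 0.97 (adjusted p = 0.189), Saa3 probe 4888 was 0.86 (adjusted p = 0.155) and Saa3 probe 14790 was 1.48 (adjusted p = 0.19). Without set 2 the Saa3 probes gave 0.73 (adjusted p = 0.458) and 1.54 (adjusted p = 0.0526). The probe 4888 call also failed with scaled arrays (0.87, adjusted p = 0.0862) and with zeros kept as values (0.83, adjusted p = 0.0575). At 4 h every probe but Csf3 probe 18418 was far above 0 with either pair. Saa3 stood at 5.07 ± 0.28 by probe 4888 (33.5-fold) and 5.50 ± 0.19 by probe 14790 (45.3-fold) with LPS and IFNG.

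Set against LPS alone, few differences passed. Over 36 differences from LPS alone (6 probes, 2 second ligands, 3 times), 1 was called higher and 0 lower by limma without a block: Il6 with LPS and IFNG at 2 h. In that comparison 1.88% of all probes were called higher and 0.556% lower. With LPS and IFNG, 1.03% were called higher and 0.0337% lower at 1 h, and 2.45% and 1.43% at 4 h. At an unadjusted p under 0.05, 5 of the 36 were higher and 3 lower. With the set number as a block, 3 were called higher and 2 lower, and blocked values are given beside the results they change, since same-numbered sets deviated together in 5 of the 6 comparisons. The differences for both second ligands at one time use the same LPS samples.

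Il6 at 2 h stood at 3.76, 3.25 and 2.09 in LPS with IFNG, against 1.52, 2.27 and 2.23 in LPS alone. Sets 1 and 2 were higher with IFNG and set 3 was not, so the groups overlapped. The difference was 1.03 ± 0.27 (SE), 2.04-fold (interval 0.49 to 1.56, adjusted p = 0.0249). It was 0.42 without set 1 (adjusted p = 0.923), 1.05 without set 2 (adjusted p = 0.219) and 1.61 without set 3 (adjusted p = 0.000516). It was 0.57 with scaled arrays (adjusted p = 0.835) and missed the threshold when fitted on the compared groups alone (adjusted p = 0.613). At 4 h Il6 stood at 5.18, 4.54 and 5.71 in LPS with IFNG, 35.4-fold over untreated cells, against 4.39, 4.58 and 4.54 in LPS alone. That difference, 0.64, did not pass (interval 0.11 to 1.18, adjusted p = 0.26), nor did the 0.19 at 1 h (interval -0.35 to 0.72).

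Csf3 by probe 6317 ran the other way. With LPS and IFNG its sets were 1.39, 0.92 and 1.02 at 1 h, against 2.16, 1.67 and 1.94 with LPS alone, and all 3 were lower. At 2 h they were 2.95, 1.89 and 2.79, against 3.18, 3.33 and 3.84, again all lower. At 4 h they were 2.66, 2.43 and 4.58, against 3.94, 4.08 and 4.52, with set 3 level. The differences were -0.82 (interval -1.55 to -0.08), -0.91 (interval -1.65 to -0.17) and -0.95 (interval -1.69 to -0.22) at 1, 2 and 4 h, with adjusted p = 1.0, 0.286 and 0.19 in the fit without a block. With the set as a block, where over all probes 1.86% were called lower at 2 h and 3.36% at 4 h, Csf3 fell at 2 h (adjusted p = 0.0469) and 4 h (adjusted p = 0.0252) but not at 1 h (adjusted p = 0.245). Without a block, the 4 h difference was -0.79 without set 1 (adjusted p = 0.9999), -0.61 without set 2 (adjusted p = 0.787) and -1.46 without set 3, where it passed (adjusted p = 0.014).

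Saa3 showed no called difference with IFNG. By probe 4888 LPS with IFNG minus LPS was -0.47, -0.14 and 0.39 at 1, 2 and 4 h, and by probe 14790 -0.41, -0.14 and 0.36, with adjusted p of 0.954 or above. At 4 h the probe 4888 sets were 5.11, 4.77 and 5.33 with LPS and IFNG, against 4.87, 4.43 and 4.74 with LPS alone, and they overlapped. The intervals at 4 h, -0.35 to 1.12 and -0.69 to 1.41, run further above 0 than below it. At 2 h set 3 was the low one with both second ligands: by probe 4888 it gave 1.64 with LPS and IFNG and 1.15 with LPS and 2MA, against 2.68 with LPS alone. Without set 3 the 2 h differences with IFNG turned to 0.32 and 0.44 by the 2 probes, and were not called (adjusted p = 0.934 and 0.88).

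For Ptgs2 the sets with LPS and IFNG were 1.78, 2.49 and 2.78 at 1 h, 4.21, 2.60 and 3.47 at 2 h, and 4.63, 3.45 and 5.57 at 4 h. Each was above the same-numbered set with LPS alone, though the groups overlapped at every time. The differences were 0.68, 0.56 and 0.92, and without a block none passed (adjusted p = 0.337 at 4 h, interval 0.10 to 1.74). With the set as a block Ptgs2 rose at 4 h (adjusted p = 0.0092, 4.12% of all probes called higher) and did not pass at 1 h or 2 h (adjusted p = 0.249 and 0.183).

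With 2MA added to LPS, no member difference was called without a block, as for nearly all probes: 0.114%, 0.0402% and 0.223% were called higher at 1, 2 and 4 h, and 0%, 0% and 0.0607% lower. At an unadjusted p under 0.05, 2 of 18 member differences were higher and 0 lower. Il6 had the smallest adjusted p. At 4 h its sets were 5.24, 5.43 and 5.82 with LPS and 2MA, 45.2-fold over untreated cells, against 4.39, 4.58 and 4.54 with LPS alone. Every set with 2MA lay above every set without it. The difference was 1.00 ± 0.27 (SE, interval 0.46 to 1.53, adjusted p = 0.112), and it passed with the set as a block (adjusted p = 0.044, 0.897% of all probes called higher) and in the model of all 96 arrays (adjusted p = 0.0119).

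The other differences for LPS with 2MA did not pass either. Csf3 probe 6317 differed by -0.04, -0.57 and -0.30 at 1, 2 and 4 h, and at 4 h the interval was -1.04 to 0.44. Its 4 h sets were 3.46, 3.34 and 4.84 with LPS and 2MA, 14.7-fold over untreated cells, and they overlapped those of LPS alone. Saa3 differed by 0.37, -0.47 and -0.54 by probe 4888 and by 0.30, -0.35 and -0.36 by probe 14790. The 2 h differences turned to 0.07 and 0.20 without set 3 (adjusted p = 0.9998 for both). The probe 4888 sets at 4 h were 4.59, 3.88 and 3.96 with LPS and 2MA, against 4.87, 4.43 and 4.74 with LPS alone, again with overlap.

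For Ptgs2 the sets at 1 h were 2.61, 2.75 and 2.42 with LPS and 2MA, against 1.11, 1.93 and 1.97 with LPS alone, without overlap. That difference, 0.93 (interval 0.11 to 1.75), had an adjusted p of 1.0, and the differences at 2 h and 4 h were 0.02 and 0.75. Whether the effect of a second ligand differed between times was tested in 36 contrasts, with 0 called by limma and 2 at an unadjusted p under 0.05. Of all probes, 0.0815% to 1.26% were called in these contrasts with IFNG and 0% to 0.0203% with 2MA.

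**Figure D3:**
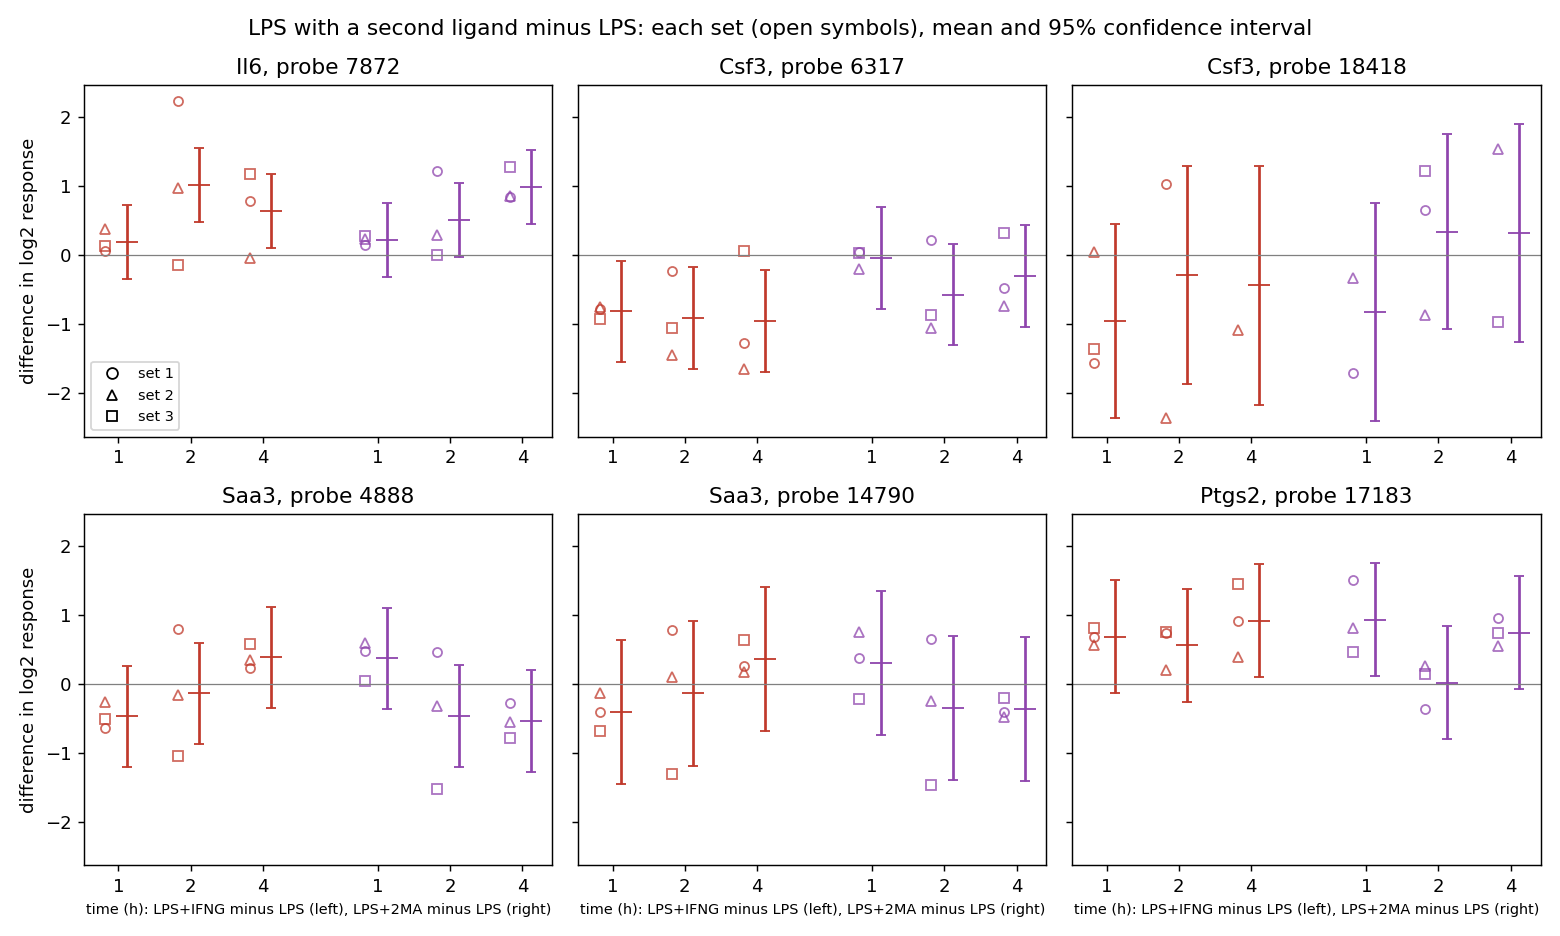
Difference in log2 ratio from LPS alone (vertical axis) for each member probe and time, with LPS and IFNG in red on the left and LPS and 2MA in purple on the right of each pair. Open symbols are same-numbered set differences, and the bar gives the fitted mean and its 95% interval. Il6 lies above 0 at 2 h with IFNG (1.03) and at 4 h with 2MA (1.00), and Csf3 probe 6317 lies below 0 with IFNG at each time.

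IFNG alone raised 1 of the 4 genes in the fit of set values. After 4 h Ptgs2 stood at 2.28, 1.61 and 2.60, a mean of 2.16 ± 0.51 or 4.48-fold, above 0 on 6 of 6 arrays (adjusted p = 3.02e-07). At 1 h its sets were -0.57, -0.23 and -0.12 and at 2 h 0.73, 0.32 and 0.12, so the 4 h sets lay above all of them. The step from 2 h to 4 h was 1.77 (adjusted p = 0.0122), where 0.772% of all probes were called higher. That step failed without set 1 (1.88, adjusted p = 0.148), without set 3 (1.42, adjusted p = 0.348) and with scaled arrays (1.53, adjusted p = 0.402). Over all probes IFNG alone called 1% higher at 1 h, 2.86% at 2 h and 6.33% at 4 h.

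The other genes did not pass with IFNG alone, although 3 member probes had an unadjusted p under 0.05 at 4 h. Il6 gave 0.10, 0.67 and 0.56 at 4 h (0.44 ± 0.30, interval 0.06 to 0.82, adjusted p = 0.14). Saa3 probe 4888 gave 0.54, 0.44 and 0.24, and probe 14790 gave 0.80, 1.71 and -0.13 (0.79 ± 0.92, adjusted p = 0.194). The probe 14790 value passed without set 3 (1.26, adjusted p = 0.000357) and in the model of all 96 arrays (0.79, adjusted p = 0.0389). Csf3 probe 6317 gave -0.05, -0.06 and 0.19 at 4 h, with an interval of -0.49 to 0.55.

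With 2MA alone no member probe was called at any time and 1 of 18 tests had an unadjusted p under 0.05, and 0.951%, 1.17% and 1.45% of all probes were called higher at 1, 2 and 4 h. Ptgs2 was the highest, at 1.07, 0.76 and 0.80 after 1 h (0.88 ± 0.17, 6 of 6 arrays above 0). That response missed the threshold (interval 0.30 to 1.46, adjusted p = 0.132), but passed when fitted on its own group (adjusted p = 0.00529) and in the model of all 96 arrays (adjusted p = 0.0191). At 2 h Ptgs2 stood at 1.03, 0.08 and 0.42 and at 4 h at 1.01, -0.01 and 0.58, with set 1 the highest at each time. Il6 stayed between -0.26 and 0.20 in all 9 sets with 2MA, and Csf3 probe 6317 between -0.24 and 0.34.

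The highest mean of each probe came in a group that held LPS. Ptgs2 was also high with IFNG alone at 4 h, where its mean of 2.16 was above that of LPS alone at 1 h (1.67), with overlapping sets. LPS with a second ligand was called above that ligand alone in 25 of 36 differences and below it in 0, with 28 higher and 0 lower at an unadjusted p under 0.05. At 2 h, 4.05% of all probes were called higher with IFNG as the ligand and 3.13% with 2MA. With either ligand 5 of 6 member probes passed there, all but Csf3 probe 18418. At 4 h, with IFNG as the ligand, these were 4.70 for Il6, 3.20 for Csf3 probe 6317, 4.66 and 4.71 for Saa3 and 2.39 for Ptgs2, where 5.61% of all probes were called higher. With 2MA as the ligand they were 5.53, 3.84, 3.96, 4.59 and 3.86, where 8.44% were called higher. Each of these has an adjusted p of 4.56e-05 or below, and of them the Ptgs2 difference from IFNG did not pass with scaled arrays (1.51, adjusted p = 0.194).

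At 1 h fewer of these differences passed. LPS with IFNG was above IFNG alone for Ptgs2 by 2.66 (sets 2.36, 2.72 and 2.91, adjusted p = 1.79e-05), and for Csf3 by 1.20 and Saa3 probe 14790 by 1.72, which passed with the set as a block (adjusted p = 0.00488 and 0.000328) and not without it (adjusted p = 0.072 and 0.0695). Of all probes 1.98% were called higher there, and 3.01% with the block. LPS with 2MA was above 2MA alone for Csf3 by 1.90, Saa3 by 1.63 and 2.04, and Ptgs2 by 1.72, where 1.25% of all probes were called higher. None of those 4 passed without set 1 (1.70, 1.49, 1.99 and 1.81, adjusted p = 0.221, 0.182, 0.872 and 0.165). The Saa3 pair also failed without set 2 (1.55 and 1.93, adjusted p = 0.323 and 0.279), and Ptgs2 without set 3 (1.76, adjusted p = 0.16). At 2 h the Saa3 probe 14790 difference of 3.16 had an adjusted p of 0.054 without set 1 (2.80).

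Over both single ligands, 25 of 36 differences from LPS alone were called lower and 0 higher, with 27 lower and 0 higher at an unadjusted p under 0.05. At 2 h, 3.61% of all probes were called lower with IFNG and 2.92% with 2MA. With either ligand 5 of 6 member probes were called lower there, all but Csf3 probe 18418. At 4 h IFNG minus LPS was -4.06 for Il6, -4.15 for Csf3 probe 6317, -4.28 and -4.35 for Saa3 and -1.47 for Ptgs2, with 5.07% of all probes called lower. The Ptgs2 sets of that comparison were 2.28, 1.61 and 2.60 with IFNG, against 3.72, 3.07 and 4.12 with LPS, without overlap. Its adjusted p was 0.0129, and the call was lost without set 1 (-1.49, adjusted p = 0.129), without set 3 (-1.45, adjusted p = 0.107) and with scaled arrays (-0.91, adjusted p = 0.646). At 4 h 2MA minus LPS was -4.53, -4.14, -4.49, -4.96 and -3.11 in the same order of probes, with 6.98% called lower.

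At 1 h, 4 of 6 member probes were called lower with IFNG and 1 of 6 with 2MA, where 1.64% and 1.1% of all probes were. Several of these calls were lost when a set was left out, while the differences stayed about as large. IFNG minus LPS was -2.02 for Csf3, -1.40 and -2.13 for Saa3 and -1.98 for Ptgs2. Without set 1 Csf3 (-1.88, adjusted p = 0.0739) and both Saa3 probes (-1.37 and -2.11, adjusted p = 0.189 and 0.427) missed the threshold. Without set 2 the Saa3 probes did (-1.45 and -2.19, adjusted p = 0.438 and 0.134), and without set 3 Ptgs2 did (-1.92, adjusted p = 0.0608). For 2MA minus LPS, Csf3 stood at -1.94 and was lost without set 1 (-1.79, adjusted p = 0.176), and Saa3, at -1.26 and -1.74, passed with the set as a block (adjusted p = 0.00646 and 0.000471, 2.14% of all probes called lower) and not without it (adjusted p = 0.0727 and 0.0902). Ptgs2 differed by -0.79 there (interval -1.61 to 0.03).

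The joint response was also set against the sum of its 2 single responses on the log2 scale. None of the 36 departures was called by limma, and at an unadjusted p under 0.05 there were 2 above the sum and 3 below it. Of all probes, 0.115%, 0.336% and 2.44% departed in either direction with LPS and IFNG at 1, 2 and 4 h, and 0.0202%, 0.0269% and 0.0813% with LPS and 2MA. Ptgs2 with LPS and IFNG at 4 h gave 4.55 ± 1.06, with departures of -1.36, -1.22 and -1.16 in sets 1, 2 and 3 and -1.25 on average (interval -2.25 to -0.24, adjusted p = 0.289). Il6 with LPS and IFNG at 2 h departed by 0.91 (sets 2.36, 0.77 and -0.41, adjusted p = 0.479), and without set 3 by 1.57 (adjusted p = 0.0189). Il6 with LPS and 2MA at 4 h departed by 1.03 (sets 0.70, 1.09 and 1.30, interval 0.37 to 1.69, adjusted p = 0.57).

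With a second ligand present, Il6 again rose at both later steps. It rose from 1 h to 2 h by 2.71 with LPS and IFNG and 2.15 with LPS and 2MA, where 2.83% and 1.72% of all probes were called higher, and from 2 h to 4 h by 2.11 and 2.98, where 3.51% and 4.67% were. Without set 3 the step to 4 h with IFNG was 1.36 (adjusted p = 0.00203), and with scaled arrays 1.35, both still called. Fitted on the compared groups alone, that step had an adjusted p of 0.0515. In Saa3 the step to 4 h with IFNG was 2.23 and 1.97 by its 2 probes, and probe 14790 gave 1.19 without set 3 and did not pass without set 1 (2.38, adjusted p = 0.14). Neither Saa3 step passed with scaled arrays (1.43 and 1.16, adjusted p = 0.0831 and 0.411) or on the compared groups alone (adjusted p = 0.0537 and 0.172). Ptgs2 rose by 1.50 over the same interval with 2MA (adjusted p = 0.0128), a call lost without set 1 (1.47, adjusted p = 0.127), without set 3 (1.25, adjusted p = 0.23) and with scaled arrays (0.58, adjusted p = 0.89).

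The set block changed further calls for that last interval. With LPS and IFNG the Ptgs2 step of 1.13 passed with it (adjusted p = 0.0387), and with LPS and 2MA the Csf3 step of 1.00 (adjusted p = 0.0263) and the Saa3 probe 14790 step of 1.45 (adjusted p = 0.00921) did, where 4.79% and 6.09% of all probes were called higher. From 1 h to 2 h with IFNG, Csf3 rose by 1.43 (adjusted p = 0.0119) and Saa3 by 2.01 and 1.89 (adjusted p = 0.000312 and 0.0229). Without set 1 these were 1.37, 1.51 and 1.70 with adjusted p of 0.336, 0.114 and 0.552. Probe 14790 also failed without set 2 (1.52, adjusted p = 0.21) and on the compared groups alone (adjusted p = 0.187). With scaled arrays Csf3 and probe 14790 missed the threshold (1.04 and 1.34, adjusted p = 0.446 and 0.222). With 2MA the Saa3 probe 4888 step to 4 h was 1.64 (adjusted p = 0.0019), 1.05 without set 3 and 1.07 with scaled arrays (adjusted p = 0.226). Fitted on the compared groups alone, that step did not pass (adjusted p = 0.112). In all, 18 of 66 steps were called higher and 0 lower, with 28 and 0 at an unadjusted p under 0.05, and none of the calls was with 2MA alone.

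Ordered by mean response over the 16 groups, the 4 h groups with LPS came first for Il6, Saa3 and Ptgs2. For Il6 the order began with LPS with 2MA at 4 h (5.50 ± 0.29), LPS with IFNG at 4 h (5.15 ± 0.59) and LPS at 4 h (4.50 ± 0.10). Saa3 probe 4888 began with LPS and IFNG (5.07 ± 0.28), LPS (4.68 ± 0.23) and LPS and 2MA (4.14 ± 0.39), all at 4 h. Csf3 probe 6317 began with LPS at 4 h, LPS with 2MA at 4 h (3.88 ± 0.84) and LPS at 2 h (3.45 ± 0.35), with LPS and IFNG at 4 h next (3.22 ± 1.18). Of the 15 pairs of neighbours of each probe, 3 in all differed by the test: Il6 with LPS at 4 h over LPS with IFNG at 2 h (1.47, adjusted p = 0.000198), Il6 with LPS at 2 h over IFNG at 4 h (1.56, adjusted p = 4.3e-05), and Saa3 probe 4888 with LPS and 2MA at 4 h over LPS at 2 h (1.17, adjusted p = 0.0262). Of all probes 5.29%, 6.51% and 11.4% were called in those 3 comparisons.

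Genes of the pathways around these products moved at 4 h of LPS as well, when 11.9% of all probes were called higher and 14.3% lower and the median response of all probes was 0.00. Among factors of the NF-kB, C/EBP and AP-1 families, 14 of 22 probes rose and 0 fell, with a median of 0.92. Nfkbiz stood at 3.84 ± 0.26 and 2.25 ± 0.43 by its 2 probes, Cebpd, the C/EBP-delta factor, at 3.14 ± 0.14, and Atf3, a stress-induced repressor of inflammatory genes, at 2.09 ± 0.23 (n = 3 sets). At 1 h, where 3.2% of all probes were called higher, 17 of 23 probes of this list were, with a median of 1.11. Nfkbiz stood at 5.04 ± 0.50 at 1 h by the first of its probes, and already at 4.35 ± 0.59 at 30 min. In the TLR4 pathway list 6 of 21 probes rose and 1 fell at 4 h, led by the adaptors Myd88 (1.27 ± 0.20) and Tirap (0.64 ± 0.27), with Tab1 at -0.53 ± 0.11.

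Partners of each product gave mixed counts at 4 h of LPS. In the interleukin 6 family and signalling list, 14 of 31 probes rose and 4 fell, with a median of 0.13, among them the kinase genes Jak2 (2.82 ± 0.40) and Pim1 (2.78 ± 0.21), the cytokine Lif (1.89 ± 0.37 by 1 probe, 0.05 ± 0.13 by another) and Stat3, the factor that acts below the receptor (1.30 ± 0.20). The 4 that fell, named after their values were seen, were probes of the receptor subunit genes Il6ra (-1.07 ± 0.14 and -0.87 ± 0.20) and Il6st (-0.76 ± 0.09 and -0.70 ± 0.38), while another Il6ra probe stood at 0.07 ± 0.33. Among colony-stimulating factors and receptors 7 of 12 probes rose and 1 fell, with Csf1 at 1.65 ± 0.55, Csf2 at 1.18 ± 1.31, the Csf3 receptor Csf3r at 0.88 ± 0.45 and the macrophage growth factor receptor Csf1r at -0.94 ± 0.23. In the serum amyloid A and acute-phase list 5 of 17 probes rose and 0 fell, and Fpr2, a receptor that binds serum amyloid A, stood at 2.60 ± 0.31, Saa1 at 0.96 ± 0.65 and Saa2 at 0.31 ± 0.12 by 1 probe and -0.21 ± 0.14 by another that did not pass. Saa1 and Saa2 are near-identical copies, so their probes may read each other.

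In the prostanoid list 6 of 28 probes rose and 4 fell, with a median of 0.09. Over all probes 11.9% were called higher and 14.3% lower, and the share of the list that fell is near the latter. Ptges, the prostaglandin E synthase that works after cyclooxygenase-2, stood at 0.76 ± 0.36 and the phospholipase gene Pla2g5 at 0.79 ± 0.11, while Hpgds, which makes prostaglandin D, was at -0.56 ± 0.18. Another phospholipase gene, Pla2g4a, named after its value was seen, was called lower at -0.36 ± 0.14. In the list of AU-rich mRNA decay and stabilising factors, 8 of 15 probes rose and 1 fell, with a median of 0.34. The list also holds the signalling genes Dusp1 and Mapkapk2, and all of their probes were among those that rose. Zfp36, which encodes the decay factor tristetraprolin, was at 3.29 ± 0.34, the phosphatase gene Dusp1 at 2.24 ± 0.05 and 2.06 ± 0.18, and Mapkapk2, a kinase that acts on tristetraprolin, at 1.54 ± 0.20. At 1 h Dusp1 had stood at 4.17 ± 0.46 and Zfp36 at 2.96 ± 0.70.

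**Figure D4:**
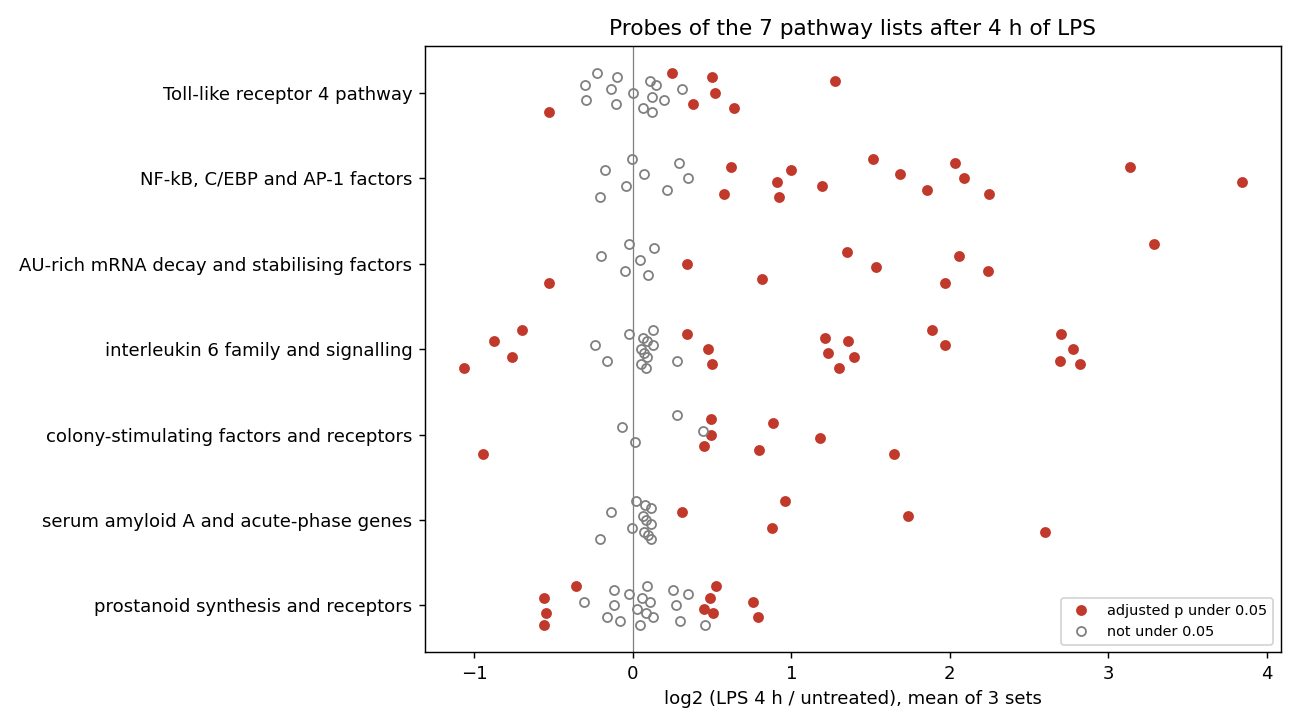
Log2 ratio of treated to untreated RNA after 4 h of LPS (horizontal axis) for each probe of the 7 pathway lists (rows), with filled red points where the adjusted p was under 0.05. The list of NF-kB, C/EBP and AP-1 factors lies furthest to the right, with a median of 0.92 against 0.00 for all probes.

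After 4 h of IFNG alone, where 6.33% of all probes were called higher, 0 of 17 probes of the acute-phase list were called by limma (0 at an unadjusted p under 0.05), which is near that share. Of the NF-kB, C/EBP and AP-1 list 15 of 24 probes rose, with a median of 0.72 and Bcl3, an NF-kB cofactor, at 2.00 ± 0.22. In the interleukin 6 list 9 of 31 probes rose, with Socs1, the feedback inhibitor of cytokine signalling, at 3.04 ± 0.27 and Stat3 at 2.00 ± 0.22. When IFNG was added to LPS for 4 h, where 2.45% of all probes were called higher and 1.43% lower, Tlr4, the LPS receptor, was lower by 2 of its 3 probes (-1.25 and -1.10, adjusted p = 0.00754 and 0.0132, and -0.35 by the other) and Tirap was lower (-0.64). In the same comparison Socs1 was higher by 1.93 and 1.80, Stat3 by 0.84 and 0.77, Saa1 by 1.21 and the prostaglandin E receptor gene Ptger4 by 1.23 by 1 of its 2 probes (-0.16 by the other), and Lcn2, an acute-phase iron-siderophore binder, was lower (-0.58). With 2MA added to LPS for 4 h, 0 of the 143 probes of the 7 lists were called, with 21 at an unadjusted p under 0.05. That 0 is near the share over all probes, of which 0.223% were called higher and 0.0607% lower.

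Among 10189 named genes with values in all 16 groups, the 5 courses closest to that of Il6 over the 16 group means were those of Crlf3 (Pearson r = 0.984), Mthfs, Aftph, Edn1, the endothelin-1 gene, and Bcl2a1b, of a family of survival genes (r = 0.976). Closest to Saa3 were Esrrg (r = 0.978), Bcl2a1d, Bcl2a1a, Pdpn and Slc25a37 (r = 0.965). For Ptgs2 they were Clic4 (r = 0.961), Sdc4, Stk40, Bcl2a1a and Bcl2a1d (r = 0.944). Bcl2a1a, Bcl2a1b and Bcl2a1d are near-identical copies and their probes may read each other. For Csf3 by the mean of both probes the 5 were Hoatz (r = 0.957), Ptpru, Ppfibp1, Krt82 and Esrrg (r = 0.918). By probe 6317 alone, an alternative chosen after seeing the data, they were Mtmr7 (r = 0.979), the chemokine gene Ccl5, Tnfrsf1b, which encodes a TNF receptor, Dcbld2 and Stk40 (r = 0.959).

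A high r does not need an equal size. At 4 h of LPS, Crlf3 stood at 1.21 and Bcl2a1d at 2.93 on the log2 scale, both below the members they resembled. The root mean square difference from the member over the 16 groups was between 1.67 and 1.85 for the Il6 set, 0.97 and 2.22 for the Saa3 set, 0.95 and 1.53 for the Ptgs2 set, and 0.40 and 0.69 for the Csf3 set by both probes. Among the members themselves r was 0.936 between Il6 and Saa3, 0.935 between Saa3 and Ptgs2, and 0.883 between Il6 and Ptgs2. With Csf3 as the mean of probes 6317 and 18418, r was 0.904 with Saa3, 0.825 with Il6 and 0.818 with Ptgs2. Those Csf3 values therefore include probe 18418, which was called in no group, and are not those of probe 6317. These correlations over 16 means are descriptions, since the groups share the array design, the dyes and the presence of LPS. Ranked by Spearman's rho instead, 1 of the 5 Il6 genes, 2 of the Csf3 genes, 4 of the Saa3 genes and 2 of the Ptgs2 genes stayed among the 5 closest. By Pearson r over the 48 set values, 0 of the Il6 genes, 1 of the Csf3 genes, 2 of the Saa3 genes and 4 of the Ptgs2 genes did.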

How the data were processed

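The values are the deposited log2 ratios of 96 arrays, normalized by the authors. Their scale ends at 6.64, the log2 of 100, so larger ratios may have been held at that limit. No header or label used here records the background correction, normalization or centring. The median of every array is 0 over all values, and lies between -0.0183 and 0.0442 without exact zeros, so a shift common to all probes cannot be seen. Probe names come from the platform annotation (13738 probes with 1 gene symbol, 52 with several, 2491 with none).

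Each ratio was read as Cy5 over Cy3 and its sign turned where treated RNA was in Cy3. Exact zeros were treated as missing, and both orientations of a set were averaged. A group-mean model of 48 set values was fitted to all 16281 probes with limma 3.58.1 (R 4.3.3). Adjusted p is Benjamini and Hochberg's over all probes tested, at 0.05, where each group had 2 or more of its 3 sets. The fit was tested on simulated data. Promoters were searched with Python 3.11.15 and plots drawn with matplotlib 3.10.9.

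Members and pathway lists were chosen with earlier results of these data known. Named genes were the members, the called list genes of largest size (up to 6 a list) and the 5 genes of highest r per member. The pairing by set number was checked by correlating deviations from group means: every set's r was over 0.1 in 5 of 6 comparisons with LPS, 5 of 6 with the second ligand alone, 5 of 6 between single ligands and LPS, and 6 of 11 time steps. Blocked fits added the set number within each time for comparisons at the same time, and the set number alone for time steps. They were least-squares fits with limma's variance moderation. Alternatives were zeros kept as values, other filters, set values with both orientations only, centring, scaling arrays to one spread, robust variances, each set left out, probes averaged per gene, fits on the compared groups alone, and a model of all 96 arrays with a dye term. For likeness they were Spearman's rho and r over set values.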

Additional observations from a re-analysis of the deposited data

How the results depend on the processing

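Of 4401 single values recomputed, 1504 of them called as reported, 77 were no longer called and 56 became called. No called value turned sign, and 136 values called in neither fit did. Beside 1 of 36 second-ligand differences called higher, scaled arrays gave 0, the compared groups alone 0, the model of all 96 arrays 2, the replicate block 3 and leaving out a set 0 to 1. Beside 0 called lower, the replicate block gave 2 and leaving out a set 0 to 1. The 18 time steps called higher became 8 with scaled arrays and 9 to 20 without a set, and the 3 neighbour pairs became 1 and 2 to 5. Departures above the sum numbered 0 to 1 without a set, and list probes lower at 4 h of LPS 6 to 10, against 11. The cause was not tested. Filters, centring, robust variance and both orientations only changed no member call.

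With both Csf3 probes averaged, 13 of 91 calls were lost, all of Csf3. Counts over all probes moved by more than 1.5 times in 24 of 57 comparisons with scaled arrays, 36 with only the compared groups, 24 in the model of all arrays, 49, 36 and 10 without set 1, 2 and 3, and 24 of 29 under the replicate block. Where same-numbered sets were not paired, the replicate block changed 1 call, the Saa3 probe 14790 step from 1 h to 2 h of LPS (1.62, adjusted p = 0.0093). The time test and neighbour counts were not run under the block. Signal over background was not used here, so what dim spots limit is unknown.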
